A study of Homo sapiens with 18 samples.

Results

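The replication-dependent histone genes were taken as the RefSeq protein-coding genes with symbols H1-1 to H1-6, or H2AC, H2BC, H3C or H4C followed by a number. There were 69 of them among 20056 protein-coding genes: 6 of type H1, 17 of H2A, 18 of H2B, 13 of H3 and 15 of H4. On chromosome 6 lay 55 members and on chromosome 1 lay 13, and H4C16 was on chromosome 12. The peaks came from eCLIP, which sequences the RNA fragments that ultraviolet light has fixed to a precipitated protein. The precipitated protein was MYC, a basic helix-loop-helix leucine zipper transcription factor, carrying a FLAG tag. It was expressed under doxycycline control in U2OS osteosarcoma cells whose endogenous MYC had been knocked out.

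The tagged alleles were 3A, 7A and wild type (WT), and the labels do not name the residues changed in 3A and 7A. For each allele, 2 immunoprecipitated libraries and 1 input library came from cells given 1 µg/mL doxycycline for 24 h, and the same numbers came from cells given PBS for 24 h. All 18 libraries thus share the knockout of endogenous MYC and the inducible construct, and nothing in the labels says whether the line is a single clone. The 3 peak lists analysed are those of the doxycycline-treated immunoprecipitates, 1 per allele, with 103 peaks for 3A, 88 for 7A and 2149 for WT. PBS-treated cells were not analysed here, so no background without the induced protein was measured. Each allele has 1 list, and whether it pools both replicates is not given, so no value below has a replicate check, no test between alleles was made, and the depth of the libraries is unknown.

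Replication-dependent histone genes encode the linker histone H1 and the core histones H2A, H2B, H3 and H4, the proteins that package newly copied DNA. They are short genes without introns, kept in multicopy clusters, and their messages are made mainly in S phase. These messages end in a conserved stem-loop bound by SLBP in place of a poly(A) tail. Most genes of a core histone type encode nearly the same protein and are similar in sequence, so reads of a copy can be placed at another copy. How the aligned reads were filtered is not given in the sources used here.

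Peaks lay over histone genes in all 3 lists. A peak was counted for a gene when they shared at least 1 bp. In the 3A list 14 of 69 histone genes had a peak (20.3%, 95% exact binomial interval 11.6 to 31.7), where 0.359% of all protein-coding genes had one. In the 7A list 3 of 69 had a peak (4.35%, interval 0.906 to 12.2), where the value over all protein-coding genes was 0.269%. In the WT list 31 of 69 had a peak (44.9%, interval 32.9 to 57.4), against 6.78% of all protein-coding genes. The intervals cover counting error over genes only. No test was made of these shares. RNA abundance was not measured in these files, and its part in the shares was not tested.

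Most short genes with a peak were histone genes. Of the 537 protein-coding genes with a span of at most 1000 bp, 61 were histone genes. Among such short genes 2.23% had a 3A peak, 0.745% a 7A peak and 6.7% a WT peak. Histone genes made up 11 of the 12 short genes with a 3A peak, 3 of the 4 with a 7A peak and 26 of the 36 with a WT peak. Among the other 476 short genes, 1 had a 3A peak, 1 had a 7A peak and 10 had a WT peak (0.21%, 0.21% and 2.1%). By peaks, histone genes held 15 of the 103 3A peaks (14.6%), 3 of the 88 7A peaks (3.41%) and 36 of the 2149 WT peaks (1.68%). The lists differ widely in length and their cutoffs and depth are unknown, so these shares are side by side and not compared.

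The genes with a peak included every type. H2A genes had a peak in 6, 1 and 9 of 17 cases in the 3A, 7A and WT lists, and H4 genes in 2, 1 and 7 of 15. H2B genes had one in 2, 0 and 9 of 18 cases, and H3 genes in 2, 0 and 4 of 13. Of the 6 H1 genes, H1-2 and H1-4 had a peak in the 3A and WT lists, and H1-4 also had one in the 7A list. Within each list the 95% exact binomial intervals of the types overlap, as the bars by type show, and no difference between types was tested.

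**Figure D1:**
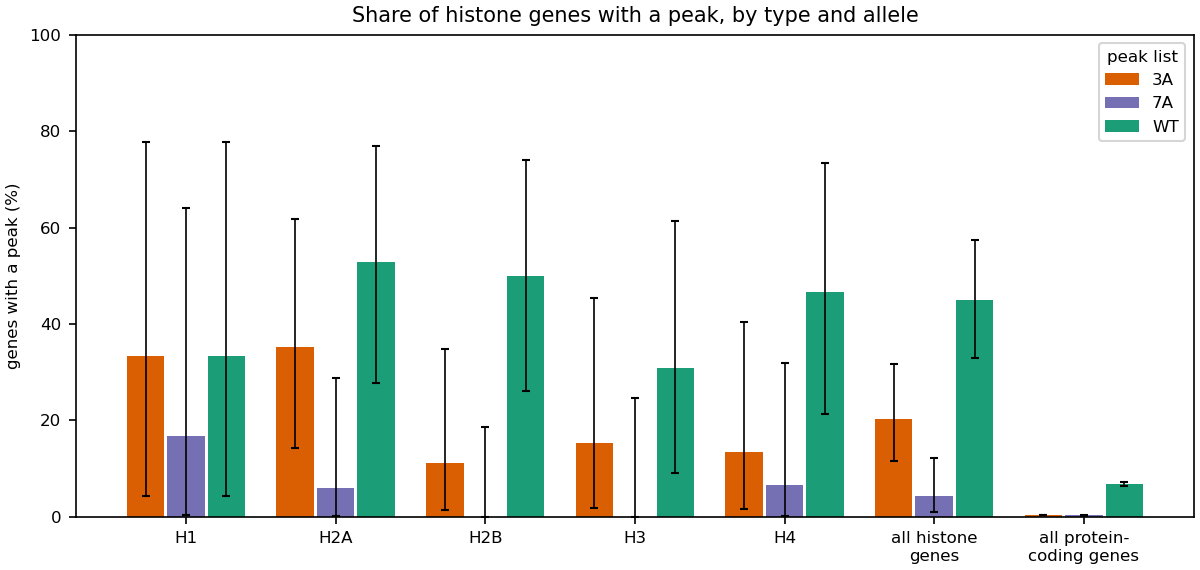
Percent of histone genes with a peak, by histone type (x axis) and peak list (colours: 3A, 7A, WT), beside all histone genes and all protein-coding genes. Bars start at 0 and whiskers are 95% exact binomial intervals over genes. All histone genes stand at 20.3% for 3A, 4.35% for 7A and 44.9% for WT.

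The promoter windows of 6 members are shown, so that the letters before the start of the genes the results turn on can be read beside their peaks. They were chosen after the peak values were seen. H1-4, H2AC6 and H4C5 had a peak in all 3 lists, H2BC11 and H2AC20 had the highest WT fold enrichments, and H3C2 had the highest −log10 q among H3 genes. The sequences are RefSeq's for GRCh38.p14, each 280 bases, 5′ to 3′ on the strand of the gene, with 250 bases before the annotated start and 30 after it. They lie at chr6:26156079-26156358 (+) for H1-4, chr6:26123922-26124201 (+) for H2AC6, chr1:149886668-149886947 (+) for H2AC20, chr6:27132766-27133045 (-) for H2BC11, chr6:26032070-26032349 (-) for H3C2 and chr6:26204360-26204639 (+) for H4C5. Capitals mark matches, on either strand, to CCAAT, to the TATA box sequence TATAAA, to the octamer ATTTGCAT and to the MYC E-box CACGTG.
H1-4: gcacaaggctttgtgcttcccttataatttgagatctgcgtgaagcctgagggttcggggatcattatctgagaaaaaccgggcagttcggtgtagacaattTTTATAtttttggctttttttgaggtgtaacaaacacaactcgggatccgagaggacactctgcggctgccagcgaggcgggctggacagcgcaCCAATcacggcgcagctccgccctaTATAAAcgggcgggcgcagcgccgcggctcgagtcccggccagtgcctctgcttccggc
H2AC6: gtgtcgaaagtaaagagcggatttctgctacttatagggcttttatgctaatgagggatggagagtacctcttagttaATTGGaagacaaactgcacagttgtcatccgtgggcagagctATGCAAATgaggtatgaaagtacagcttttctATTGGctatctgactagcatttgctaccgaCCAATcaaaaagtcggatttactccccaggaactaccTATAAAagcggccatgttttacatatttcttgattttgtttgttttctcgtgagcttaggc
H2AC20: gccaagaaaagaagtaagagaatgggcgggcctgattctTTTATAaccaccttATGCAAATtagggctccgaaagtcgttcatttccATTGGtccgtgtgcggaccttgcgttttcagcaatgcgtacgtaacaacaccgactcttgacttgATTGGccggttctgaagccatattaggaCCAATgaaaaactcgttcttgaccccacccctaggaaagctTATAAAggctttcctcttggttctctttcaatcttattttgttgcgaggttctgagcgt
H2BC11: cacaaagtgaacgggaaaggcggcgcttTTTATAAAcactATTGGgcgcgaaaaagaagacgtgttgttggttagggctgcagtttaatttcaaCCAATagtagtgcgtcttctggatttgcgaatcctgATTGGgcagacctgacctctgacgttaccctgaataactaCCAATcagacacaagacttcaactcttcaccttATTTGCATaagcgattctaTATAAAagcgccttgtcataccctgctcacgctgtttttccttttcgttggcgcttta
H3C2: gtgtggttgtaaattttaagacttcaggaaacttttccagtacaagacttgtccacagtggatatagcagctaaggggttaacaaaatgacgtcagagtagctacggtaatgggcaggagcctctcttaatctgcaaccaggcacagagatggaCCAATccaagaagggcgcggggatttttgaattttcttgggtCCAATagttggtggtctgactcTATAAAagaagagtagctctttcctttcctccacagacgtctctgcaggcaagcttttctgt
H4C5: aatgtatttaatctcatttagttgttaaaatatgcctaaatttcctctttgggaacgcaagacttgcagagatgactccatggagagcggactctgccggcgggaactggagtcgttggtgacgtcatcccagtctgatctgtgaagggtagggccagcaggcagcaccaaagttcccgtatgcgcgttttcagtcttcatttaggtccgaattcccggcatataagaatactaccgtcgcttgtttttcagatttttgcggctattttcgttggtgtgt

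The CCAAT box, the TATA box and the octamer are elements known from histone promoters. In H1-4, H2AC6, H2AC20, H2BC11 and H3C2 a TATAAA began between 32 and 28 bases before the start. H4C5 held none of the 4 motifs in this window. In H2BC11 the octamer began 47 bases before the start. Another TATAAA, 222 to 220 bases before it, was read on both strands with overlap, and that end of the window reaches the start of the divergent gene H2AC11.

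The motifs were counted on both strands, over 250 bases before to 50 after the start. Over the 64 members with a promoter window in the RefSeq table, 54 held CCAAT (84.4%, against 35.7% of all 27305 windows, 1 per gene) and 42 held TATAAA (65.6%, against 3264 of all windows). The octamer was found in 26 (40.6%, against 1.8%), of which 14 were H2B and 11 H2A genes. In the 12 head-to-head H2A and H2B pairs the starts were 193 to 247 bp apart. Windows of such neighbours overlap, so a single match can count for both an H2A and an H2B gene. The windows of H2AC7 and H3C4 were identical, as were those of H4C14 and H4C15. The 64 windows are therefore not all separate promoters. The canonical MYC E-box CACGTG was in 0 of the 64 windows, and in 7.43% of all windows. No match says only that these letters are not in this window. CCAAT was in 24 of 29 windows of members with a WT peak and in 30 of 35 of those without one. TATAAA was in 21 of 29 and in 21 of 35 in the same order, and the octamer in 14 of 29 and in 12 of 35. Of the 12 windows of members with a 3A peak, 11 held CCAAT, 8 held TATAAA and 8 held the octamer. These 12 include the identical windows of H2AC7 and H3C4. None of these splits was tested. A match is a description of these letters and not evidence of binding, and the peaks themselves began downstream of the start.

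In the WT and 3A lists peaks covered most of the annotated length of the short histone genes, taken by the median. In the WT list the median share of the annotated span under peaks was 84.7% over the 26 short histone genes with a peak (lowest 18.0%, highest 97.0%). It was 76.2% over all 36 short protein-coding genes with a WT peak, but these include the same 26 histone genes. The median over all 1359 protein-coding genes with a WT peak, most of them longer, was 1.17%. In the 3A list it was 62.4% over 11 short histone genes (36.2 to 92.5%). In the 7A list the 3 genes had 19.6%, 40.1% and 48.3%. H2AC11, an H2A gene, had the highest WT coverage, 97.0%, with a peak of 519 bp on a gene of 493 bp. Next came H2AC12 (95.2%), H1-2 (93.8%), H2BC11 (93.5%), H1-4 (92.8%) and H3C2 (92.8%).

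The WT peaks began after the gene start and many ran past the gene end. The first edge lay at base 57.5 of the gene in the median (16 to 382), and none of the 26 genes had a peak that began before its start. In 18 of the 26 genes the peak ran past the annotated end, with a median of 30 bp and a highest value of 70 bp over all 26. The furthest overhangs were at H4C2 and H4C8, with 70 bp each. In the 3A list the first edge was at base 70 in the median and 3 of 11 genes had a peak past the end. In the 7A list the edges were at bases 79, 100 and 113, and no peak passed the end.

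**Figure D2:**
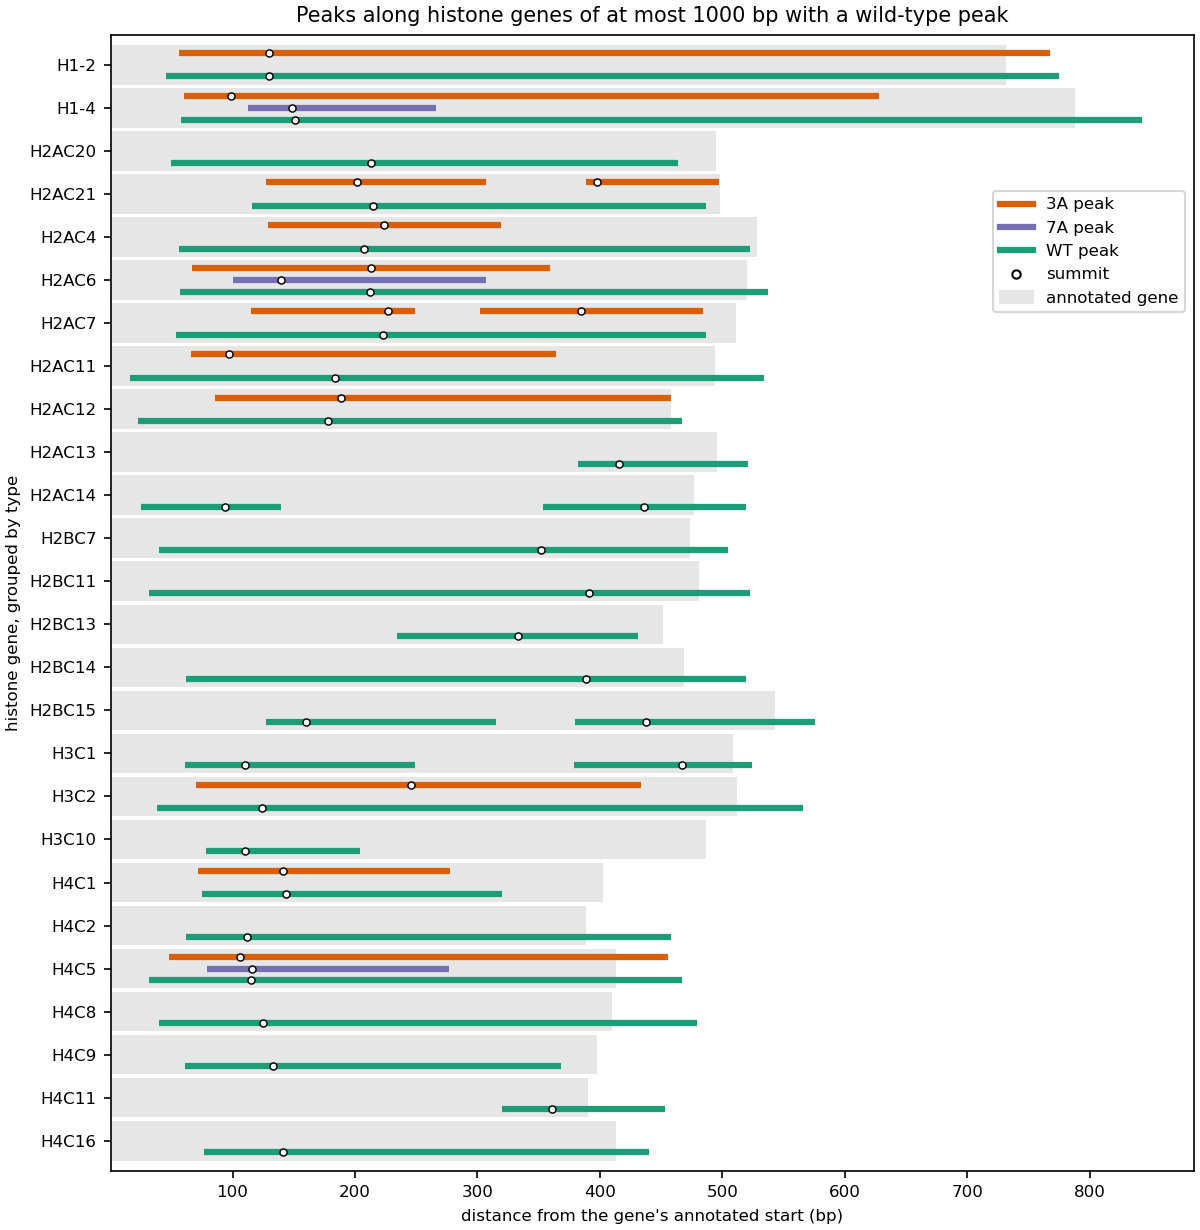
Peaks along the 26 histone genes of at most 1000 bp with a WT peak, with distance from the annotated start in bp on the x axis and genes grouped by type down the page. Coloured lines are peaks (3A, 7A, WT), open circles their summits and grey bars the annotated genes. WT summits of 6 of the 7 H4 genes fall between bases 112 and 144.

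The summit is the position of highest signal within a peak. Among H4 genes, the WT summit was at base 112 in H4C2, 115 in H4C5, 125 in H4C8, 133 in H4C9, 141 in H4C16 and 144 in H4C1. H4C11 was the exception, with its summit at base 361. H4C16 lies on chromosome 12, away from the clusters. Among H2A genes, 7 of 10 WT summits lay between bases 178 and 223, in H2AC12, H2AC11, H2AC4, H2AC6, H2AC20, H2AC21 and H2AC7 in that order. The other 3 were at bases 94 and 436 in H2AC14 and 416 in H2AC13. The H1 summits were at base 130 in H1-2 and 151 in H1-4.

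The H2B summits were divided at 250 bp from the start, a value chosen after they were seen. Of 12 WT summits on the strand of an H2B gene, 5 lay between bases 103 and 160 and 7 between 333 and 472. H2BC4 and H2BC12 had the early summit alone (bases 106 and 103). H2BC7, H2BC11, H2BC13 and H2BC14 had the late summit alone (352, 391, 333 and 389). H2BC5, H2BC15 and H2BC21 had both, in separate peaks. H3 genes had early summits at base 110 in H3C1 and H3C10 and 124 in H3C2, and a late one at 467 in H3C1. The H3C4 summits, at bases 223 and 2376, are those of a long span that also holds H2AC7. Genes of a type share sequence, and the part of reads shared between copies in these positions was not tested.

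In the WT list histone peaks had a higher median width and −log10 q than the whole list, at nearly the same median fold enrichment. The fold enrichment and −log10 q are the authors' values for each peak. They are ranked and compared within a list only. Where values of a gene from different lists stand side by side below, they are not compared. The median width was 384.5 bp over 36 histone peaks and 165 bp over all 2149 WT peaks. The median −log10 q was 53.4 over histone peaks and 17.8 over all. The median fold enrichment was 8.1 over histone peaks (4.5 to 19.0) and 8.11 over all. Histone peaks numbered 11 among the 100 WT peaks of highest −log10 q and 0 among the 100 of highest fold enrichment. These are descriptions with no test.

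**Figure D3:**
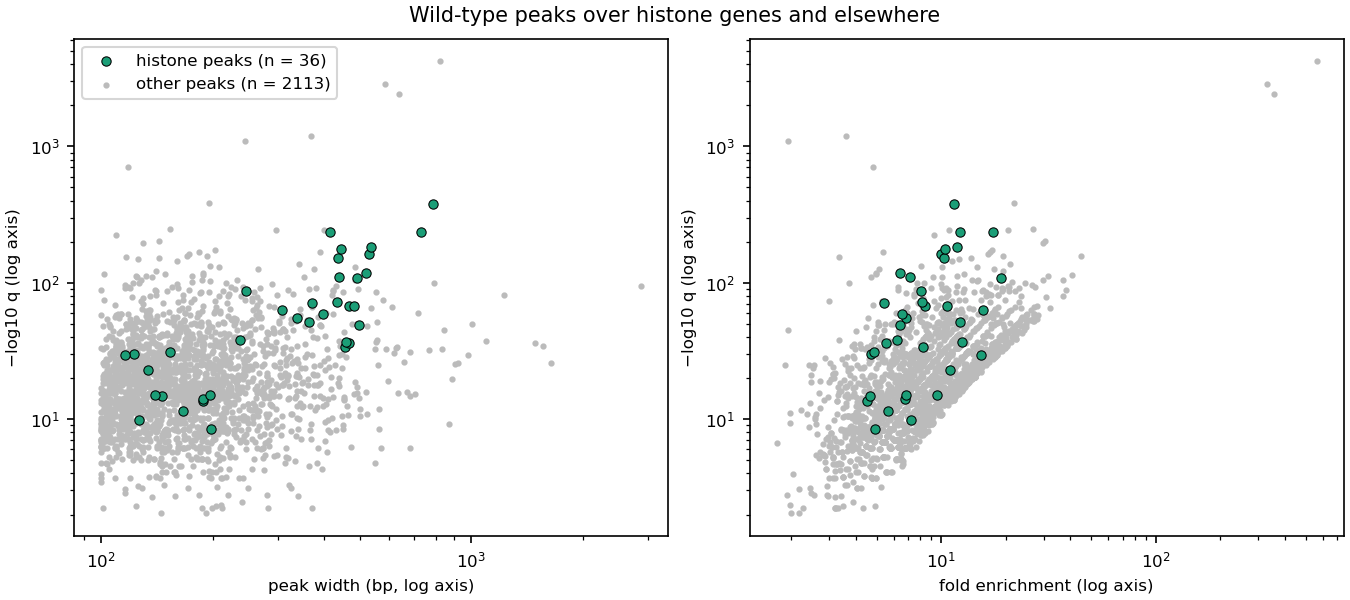
WT peaks over histone genes (green, n = 36) and elsewhere (grey, n = 2113), with −log10 q (y) against peak width in bp (left) and fold enrichment (right), all on log axes. Each point is a peak. Histone peaks reach widths of 786 bp and fold enrichments between 4.5 and 19.0.

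The 15 3A histone peaks had a median width of 293 bp, where all 3A peaks had 171 bp. Their median −log10 q was 23.4, below the 31.8 of all 3A peaks, and their median fold enrichment was 3.81, below the list's 5.54. The 3 7A histone peaks were 154, 199 and 208 bp wide, where the list had a median of 202 bp. Their fold enrichments of 3.32, 3.46 and 4.11 were all below the 7A median of 9.76. Their −log10 q values of 32.8, 16.6 and 6.36, at H1-4, H4C5 and H2AC6, lay on both sides of the list's median of 20.8.

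By fold enrichment the WT histone peaks were led by H2BC11, at chr6:27132273-27132764, with 19.0 and a −log10 q of 108. H2AC20 on chromosome 1 followed, at chr1:149886967-149887381, with 17.5 and a −log10 q of 235. The next was the peak at H4C9, chr6:27139342-27139649, with 15.6 and a −log10 q of 62.9. These stood at ranks 116, 166 and 240 of the whole list. H2AC14 had 15.3 (chr6:27814638-27814753, −log10 q 29.5), H2BC14 had 12.5 (chr6:27815083-27815540, −log10 q 36.7) and H1-2 had 12.2 (chr6:26055696-26056425, −log10 q 235).

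Ranked by −log10 q, linker histone genes led. The H1-4 peak, chr6:26156386-26157171 on the plus strand, was 786 bp wide with a −log10 q of 379, the 8th highest of the list. H1-2 had 235 (rank 12), H2AC20 had 235 (rank 13), H2BC12 had 182 (rank 17), H2AC12 at chr6:27147128-27147572 had 176 (rank 18) and H3C2 at chr6:26031534-26032062 had 162 (rank 22). The lowest histone value was 8.51, at H2BC13. H1-4 and H1-2 encode the H1.4 and H1.2 linker histones. The other 4 H1 members, H1-1, H1-3, H1-5 and the testis gene H1-6, had no peak in any list.

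Mutant peaks over histone genes lay on WT peaks. All 15 3A histone peaks met a WT peak, where 78.6% of all 3A peaks did. All 3 7A histone peaks met a WT peak, where 34.1% of all 7A peaks did. In the other direction, 3A peaks met 13 of 36 WT histone peaks (36.1%, 95% exact binomial interval 20.8 to 53.8), where the value over all WT peaks was 3.54%. For 7A it was 3 of 36 (8.33%, interval 1.75 to 22.5), where it was 1.4% over all. Every meeting at a histone gene was on the same strand. The 14 genes with a 3A peak all had a WT peak and made up 14 of the 31 genes with one. The 3 genes with a 7A peak had a peak in all 3 lists.

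The 3 genes met by every allele were H1-4, H2AC6 and H4C5, all on chromosome 6. H1-4 had fold enrichments of 2.54 in the 3A list, 3.32 in the 7A list and 11.5 in the WT list, with −log10 q of 43.5, 32.8 and 379. H4C5 had fold enrichments of 4.55, 3.46 and 10.3 in the 3A, 7A and WT lists, with −log10 q of 41.5, 16.6 and 152. H2AC6 had fold enrichments of 5.81, 4.11 and 10.7 in the same order, with −log10 q of 23.4, 6.36 and 67.1. These values were not compared between lists.

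The summits of these genes lay 1 to 72 bp from the WT summit. The H4C5 summit was at base 106 in 3A, 116 in 7A and 115 in WT. The H1-4 summit was at base 99 in 3A, 149 in 7A and 151 in WT. For H2AC6 it was at base 213 in 3A, 140 in 7A and 212 in WT. The 7A peaks were chr6:26156441-26156594 at H1-4, chr6:26124271-26124478 at H2AC6 and chr6:26204688-26204886 at H4C5, each wholly inside the WT peak. They covered 19.6% (H1-4), 43.2% (H2AC6) and 45.6% (H4C5) of its width. Of the other 27 pairs of 7A and WT peaks, 20 had the 7A peak wholly inside, and the median width was 91.2% of the WT width.

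The 3A peaks were narrower than the WT peaks they met in 15 of 15 pairs, and in 51 of the other 66 pairs of 3A and WT peaks. They lay wholly inside the WT peak in 13 of 15 pairs, and in 47 of the other 66. Their width was 60.9% of the WT width in the median, where it was 82.9% over the others. Summits were at most 25 bp apart in 9 of the 15 pairs (60.0%), and in 51 of the 66 other pairs (77.3%). The median distance was 13 bp over the histone pairs and 5 bp over the others. The closeness of 25 bp was chosen after the distances were seen. The 15 pairs hold 13 WT peaks, since those at H2AC21 and H2AC7 were each met by 2 3A peaks. These had 29.3% and 48.7% of the WT width at H2AC21, and 42.2% and 31.1% at H2AC7. Their summits lay 183 and 13 bp from that of WT at H2AC21, and 162 and 4 bp at H2AC7. Such split peaks lower the median width and the share of close summits. Depth and cutoffs of the lists are unknown, and no width was tested between them.

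By coverage the 3A peaks were led by H1-2 (92.5%), H4C5 (88.6%), H2AC12 (81.4%) and H1-4 (72.3%). At H1-2 the 3A peak, chr6:26055703-26056415, was 713 bp wide with 6.63-fold enrichment and −log10 q 78.9, and its summit fell on the same base as in WT. At H4C1 the 3A peak, chr6:26021720-26021926, had the highest 3A histone values, with 7.77-fold enrichment and −log10 q 88.4, the 15th highest of that list. The WT peak at H4C1, chr6:26021723-26021968, had 8.03 and 86.7, and the summits were 3 bp apart. The 3A peaks at H4C5 and H1-4 were chr6:26204657-26205065 and chr6:26156388-26156956, and the WT peak at H4C5 was chr6:26204641-26205076.

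Among H2A genes with a 3A peak, H2AC6 (chr6:26124238-26124530) and H2AC12 (chr6:27147191-27147563, fold enrichment 3.81, −log10 q 25.4) had summits 1 and 11 bp from those of WT. At H2AC4 the 3A peak, chr6:26033300-26033490, had a fold enrichment of 4.52, a −log10 q of 15.6 and a summit 17 bp from that of WT. H2AC11 had 2.26-fold enrichment and −log10 q 8.07 (chr6:27133108-27133406), with the summit 87 bp away. The WT peaks at these genes were chr6:26033096-26033563 at H2AC4 (fold enrichment 8.44, −log10 q 67.2), chr6:27133058-27133576 at H2AC11 (6.43 and 117) and chr6:26124228-26124708 at H2AC6. The WT fold enrichment at H2AC12 was 10.5.

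At 2 positions a single WT peak was met by 2 3A peaks. H2AC21, the chromosome 1 gene with a 3A peak, had them at chr1:149887469-149887577 and chr1:149887659-149887839, with fold enrichments of 2.21 and 3.38. The first of these had the lowest −log10 q of the whole 3A list, 2.34, and the other had 25.9. The WT peak there was chr1:149887479-149887850 (5.44 and −log10 q 71.6). H2AC7 had them at chr6:26198810-26198992 and chr6:26199045-26199179, with fold enrichments of 4.4 and 3.53 and −log10 q of 12.1 and 12.6. In both genes the 3A peaks left a gap inside the WT peak.

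The H2B genes with a 3A peak were H2BC4 and H2BC12. At H2BC12 the 3A peak, chr6:27146695-27146818, was 124 bp wide with 6.46-fold enrichment and −log10 q 61.3, and its summit fell on the base of the WT summit (chr6:27146298-27146834, 537 bp, fold enrichment 11.8). At H2BC4 it was chr6:26123410-26123859, with 3.7-fold enrichment and −log10 q 12.6, and its summit was 226 bp from that of WT (chr6:26123407-26123903, fold enrichment 6.4, −log10 q 48.8). H3C2 had a 3A peak at chr6:26031666-26032030 with a fold enrichment of 2.64, a −log10 q of 13.5 and a summit 122 bp from that of WT, where the WT fold enrichment was 9.98. In H2BC4 and H3C2 the 3A summit lay farther from the start than the WT summit, at base 332 against 106 in H2BC4 and at base 246 against 124 in H3C2.

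WT histone peaks met by 3A peaks had a higher median width than those not met, a description with no test. By the rule of at least 1 bp shared, a wider peak is easier to meet, and the part of this in the difference was not tested. The 13 met had a median width of 481 bp, a median −log10 q of 117 and a median fold enrichment of 9.98. The 23 not met had 198 bp, 31.0 and 6.88. Over all WT peaks, the 76 met had a median of 234.5 bp, 79.0 and 8.88, and the 2073 not met had 162 bp, 17.2 and 8.1. H2BC11 and H2AC20, highest by WT fold enrichment, were among the genes with no mutant peak.

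**Figure D4:**
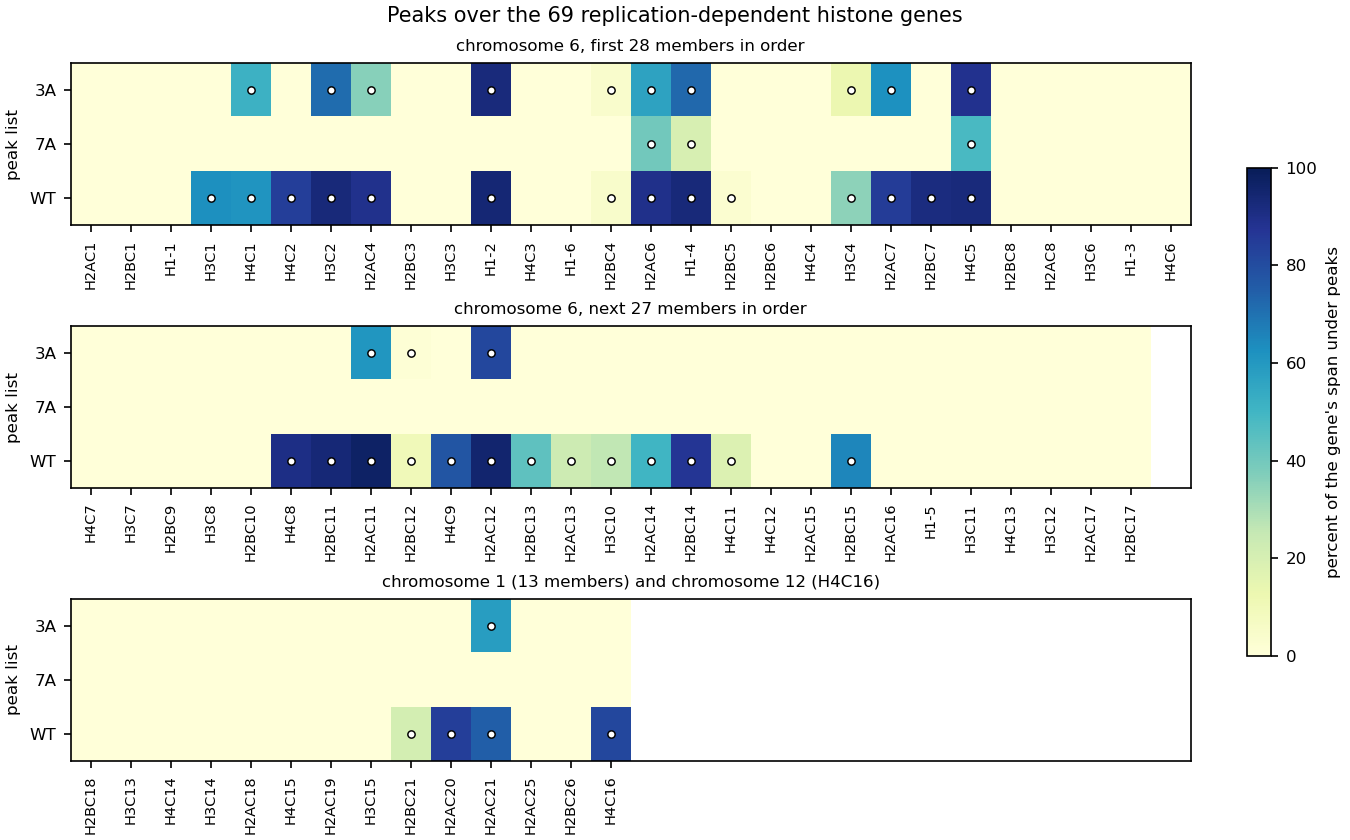
The 69 histone genes in chromosome order (x axis), with the 3A, 7A and WT lists as rows. Colour is the percent of the gene's span under peaks and a white point marks a gene with a peak. The 14 genes of the 3A row and the 3 of the 7A row all have a point in the WT row, and no 3A point falls on the last 16 members of chromosome 6.

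The chromosome 6 members fell into 4 groups parted by more than 200 kb, a gap chosen after the data were seen. The largest ran from H1-1 to H4C8 (32 genes, 26017032 to 26285534), with peaks in 10 genes for 3A, 3 for 7A and 15 for WT. The 5 genes from H2BC11 to H2AC12 (27132316 to 27147562) had a peak in 3, 0 and 5 cases in the same order. The 16 genes from H2BC13 to H2BC17 (27807479 to 27893891) had a peak in 0, 0 and 7 cases. The WT peaks there had a median −log10 q of 15.0 and covered a median of 43.9% of 7 short genes, where the group from H1-1 to H4C8 had 67.1 and 89.8% of 12. The testis genes H2AC1 and H2BC1 formed the remaining group and had no peak.

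Within each group, no peak of any list lay between the members. All WT peaks within the outer bounds of these groups and of the chromosome 1 groups overlapped a member, and the same held for 3A and 7A. All but 1 of the 38 gene and peak combinations in the WT list were on the strand of the gene, as were all 17 in 3A and all 3 in 7A. The exception was the peak at H4C9, which lies on the opposite strand within the long annotated span of H2BC12. The peak has the strand of H4C9. The strands of H4C1 and H2AC12 were themselves taken from their peaks.

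H2A and H2B genes often lie head to head and share a promoter region. There were 12 such pairs, with 193 to 247 bp between the starts. In the WT list both genes had a peak in 7 pairs, a single gene in 1 and neither in 4. In the 3A list both had a peak in 2 pairs (H2BC4 with H2AC6, H2BC12 with H2AC12), a single gene in 2 and neither in 8. In the 7A list H2AC6 alone had a peak, and neither gene of the other 11 pairs. Peaks of a pair were on opposite strands and did not cross the region between the starts. In the pair of H2BC11 and H2AC11 the peaks began 32 and 16 bases into the genes. The pair with a peak on a single gene was H2AC15 with H2BC15, and the peaks were on H2BC15.

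Some peaks could not be given to a single gene. The annotated span of H3C4 takes in the whole of H2AC7 on the same strand, and both begin at the same base, so the WT peak chr6:26198807-26199240 (fold enrichment 8.16, −log10 q 71.7) and the 3A peaks there count for both. A separate WT peak, chr6:26196772-26197226 (8.21, −log10 q 33.8), lay at the far end of H3C4, where it covered 17.6% of the span. Coverage is low by construction in genes annotated with long spans. With a WT peak these were H2BC5 (2.96%, the lowest), H2BC4, H2BC12, H2BC21 and H3C4. In the 4 H2B genes the WT summits on the strand of the gene lay at most 472 bases from the start.

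No peak was found in 38 members: 4 H1, 8 H2A, 9 H2B, 9 H3 and 8 H4 genes. A run of 10 neighbours from H2BC8 to H2BC10 on chromosome 6 (26216200 to 26273412) had none, with H2AC8, H3C6, H1-3, H4C6, H4C7, H3C7, H2BC9 and H3C8 between them. Nor had the last 7, H2AC16, H1-5, H3C11, H4C13, H3C12, H2AC17 and H2BC17. On chromosome 1 the first 8 had none, H2BC18, H3C13, H4C14, H3C14, H2AC18, H4C15, H2AC19 and H3C15.

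The run on chromosome 1 holds duplicated genes. H4C14 and H4C15 had promoter windows identical over 300 of 300 bases. H3C14 and H3C15 shared a run of 296 identical bases, and H2AC18 and H2AC19 a run of 299. All 6 were without a peak. Whether reads that fit both copies were dropped is not given in the sources used here, and its part in the missing peaks was not tested. Expression of the members without a peak is unknown. The remaining members without a peak were H1-1, H1-6, H2AC1, H2AC15, H2AC25, H2BC1, H2BC3, H2BC6, H2BC26, H3C3, H4C3, H4C4 and H4C12.

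Related genes outside the clusters were counted in the same way. Of 28 matched replication-independent histone genes, 0 had a 3A or 7A peak, where 0.359% and 0.269% of all protein-coding genes had one. The 4 genes with a WT peak made up 14.3%, against 6.78% of all protein-coding genes. Among them were the H2A.Z gene H2AZ1 (highest fold enrichment 15.6), the DNA damage variant gene H2AX (8.17) and H3-5 (7.81). Of 88 histone pseudogenes, 1 had a WT peak, H2AZ2P1 (3.59), and none had a mutant peak. The share over all pseudogenes was not counted here. The difference in share from the replication-dependent genes was not tested.

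Of 27 genes of histone message transcription and 3′ end processing, 3 had a WT peak (11.1%, against 6.78% of all protein-coding genes), 0 a 3A peak and 1 a 7A peak. Over all protein-coding genes, 0.359% had a 3A peak and 0.269% a 7A peak. SNRPB, which encodes an Sm protein common to spliceosomal and U7 particles, had 5 WT peaks (highest 12.8) and 1 7A peak (6.12). SNRPF, another Sm protein gene, had 11.8, and UPF1, a helicase in histone message decay, had 3.75. SLBP and the U7-specific genes LSM10 and LSM11 had none.

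Of 30 histone chaperone and import genes, 10 had a WT peak (33.3%, against 6.78% of all protein-coding genes). None had a 3A or 7A peak, where 0.359% and 0.269% of all protein-coding genes had one. By highest fold enrichment they were SET (24.5), the nucleoplasmin family gene NPM3 (17.5), SUPT16H (17.3) and SSRP1 (8.66), which encode the FACT complex, and the nucleolin gene NCL (16.6). ANP32A (11.99), the importin gene IPO7 (10.9), the nucleophosmin gene NPM1 (8.1), the replicative helicase subunit gene MCM2 (5.14) and ANP32B (4.78) were the others.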

How the data were processed

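Titles gave each sample's allele, treatment and kind of library, per the labels. The authors deposited 1 narrowPeak list for each allele given doxycycline. A peak's fold enrichment is a ratio, deposited by the authors, over a control that no source used here names. Its −log10 q and its summit offset in bp were also deposited by the authors. The submitters' processing notes name MACS2, cutadapt, BWA and hg38. Their versions and settings, and whether replicates were pooled, are not stated in what was read here. Depth is unknown.

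Starts were turned to 1-based positions. Genes were RefSeq's for GRCh38.p14, the assembly of hg38, by whole span, since no exons were given. Strands came from the RefSeq promoter table for 64 members and from the peak for H4C1 and H2AC12. Intervals on shares are exact binomial (95%, Clopper-Pearson) and cover counting error over genes or peaks only. Every member with a peak was named. Position, fold enrichment and −log10 q were given for members with a mutant peak, the 6 WT peaks of highest fold enrichment and the 6 of highest −log10 q, and peaks over more than 1 member. The members and lists were chosen with earlier results of these data known. An item outside the members is not reported here. Alternatives changed the overlap rule, the peak cutoffs, the strand and the members. The overlap steps were tested on simulated peaks. The tools were matplotlib 3.10.9, SciPy 1.17.1, NumPy 2.4.6, pandas 2.3.3 and Python 3.11.15.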

Additional observations from a re-analysis of the deposited data

How the results depend on the processing

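Of 82 alternative values of 12 results, 72 stayed within 1.5 times for counts, or within the main median's 95% interval. Without the peaks below their list's median fold enrichment there were 4 histone genes with 4 peaks in 3A, 0 genes with 0 peaks in 7A and 18 genes with 18 peaks in WT. The lists cut in this way held 52, 44 and 1076 peaks in the same order. By construction, the median fold enrichment of WT histone peaks was then 11.3, and 3 WT histone peaks were met by 3A and 0 by 7A. With at least 50 percent of both peaks shared, 0 WT histone peaks were met by 7A, by construction, since no 7A histone peak is that wide. Overlap by 50 percent of the peak or by the summit and a −log10 q of at least 5 changed no count by over 1.5 times, nor did the strand of the gene or the addition of H2BC12L. By the strand of the gene, 12 genes had a 3A peak and 29 had a WT peak. H4C1 and H2AC12, with a peak in both lists, have no strand in the promoter table. Restriction to members of at most 1000 bp, and leaving out H3C4, H2AC7, H2BC12 and H4C9, were chosen after seeing the data and were run for the counts of genes and peaks and for the medians, 10 of the 12 results, all of which stayed within these bounds. They were not run for the meetings of WT with 3A or 7A peaks. No paired analysis was possible because a list carries no replicate values, which also means that leaving out a replicate was not possible. The 3 histone peaks of 7A limit each statement about that allele.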
